A study of Mus musculus with 6 samples.

Results

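The poly-ADP-ribose polymerase (Parp) family was followed at the RNA level in As4.1 cells, a mouse kidney tumour line that expresses renin, through the 10 genes Parp1, Parp2, Parp3, Parp4, Parp8, Parp9, Parp10, Parp11, Parp12 and Parp14. A probe set counted as a member when the array annotation gave it to 1 of these genes alone. By that rule 9 of the 10 genes, of 18193 genes named on the array, were represented by 17 of its 45037 probe sets, and Parp10 had none of its own. The family was chosen by its signals in all 3 groups, so levels and differences of the members are a description. Their standard errors and intervals draw on a variance shared across probe sets, not only on the spread of that probe set's own arrays. Neither these nor the counts of calls are a test of the family. The cells received vehicle, hydrogen peroxide, a reactive oxygen species that damages DNA, or interleukin. Which interleukin was used, the doses and the times are not given in the labels. Each group held 2 separate cultures of this 1 line, each read on its own Affymetrix mouse array (6 arrays in all). Both treatments were compared with the same 2 vehicle arrays.

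Parp enzymes take ADP-ribose from NAD and attach it to proteins. Parp1 and Parp2 sense DNA strand breaks and build long poly-ADP-ribose chains that recruit repair factors. Most other members attach single ADP-ribose units. Several members besides Parp1 and Parp2, among them Parp9, Parp10, Parp11, Parp12 and Parp14, are known as interferon-stimulated genes of antiviral defence.

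Signals are MAS5 intensities on a linear scale, scaled so that every array has a trimmed mean of 1500.01, with a median of 192.2 to 232.3 over the arrays. Arrays of 1 group correlated at 0.934 to 0.941 over all probe sets and arrays of different groups at 0.924 to 0.935. Interleukin array 1 correlated at 0.934 with its replicate and at 0.935 with each hydrogen peroxide array. The number of arrays limits the precision of every value below. In bulk RNA a lower signal from fewer expressing cells and one from less RNA per cell cannot be told apart. Of the defining markers of the labelled cell type, Ren1 and Akr1b7 had no probe set of their own here, while Pdgfrb, a receptor of mural cells, had signals of 7956 to 15399. Other markers on the same list were dim, with Gja5 at 5.2 to 9.1 and Myh11 at 7.6 to 136.1. Ptprc, the defining marker of leukocytes, lay between 21.3 and 125.7. Of the 17 Parp probe sets, 15 had a mean log2 signal at or above the median of the array, a geometric mean signal of 193.7, and entered the fit across 22519 probe sets. The other two, the dimmer sets of Parp11 and Parp14, did not. Since this filter used the treated arrays too, counts over the 15 describe only the probe sets that passed. In what follows, a log2 difference is the limma estimate with its standard error (n = 2 arrays per group), and a fold is that estimate on the linear scale.

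Promoter sequence is shown for 4 members whose signals differed in distinct ways, since several members are known interferon-stimulated genes and the factors of that pathway bind known motifs. They are Parp1, lower with interleukin, Parp12, higher with interleukin than with hydrogen peroxide, Parp11, higher with both treatments, and Parp4, whose vehicle and hydrogen peroxide arrays overlapped. Each run holds the 250 bases before the gene's start, 5′ to 3′ on the gene's strand, from RefSeq promoter sequences on GRCm38.p6, with motif matches in capitals. Parp11 had 2 such runs, of which window 1 is shown.
Parp1, chr1:180568641-180568890, plus strand: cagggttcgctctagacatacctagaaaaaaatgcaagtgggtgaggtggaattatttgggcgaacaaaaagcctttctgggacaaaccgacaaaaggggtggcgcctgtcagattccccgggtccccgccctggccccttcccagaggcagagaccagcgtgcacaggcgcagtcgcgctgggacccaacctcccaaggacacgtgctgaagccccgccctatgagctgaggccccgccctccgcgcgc
Parp12, chr6:39118350-39118599, minus strand: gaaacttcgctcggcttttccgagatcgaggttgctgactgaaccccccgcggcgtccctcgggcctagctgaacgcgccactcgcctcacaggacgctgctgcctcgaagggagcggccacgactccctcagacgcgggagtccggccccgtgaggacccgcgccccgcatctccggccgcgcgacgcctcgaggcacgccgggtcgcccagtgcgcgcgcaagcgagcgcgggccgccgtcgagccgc
Parp11, chr6:127446590-127446839, plus strand: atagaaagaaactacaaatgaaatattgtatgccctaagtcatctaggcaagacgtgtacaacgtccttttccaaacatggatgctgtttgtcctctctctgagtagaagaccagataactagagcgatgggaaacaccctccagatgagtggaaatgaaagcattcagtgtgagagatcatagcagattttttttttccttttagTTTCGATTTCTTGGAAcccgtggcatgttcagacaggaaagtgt
Parp4, chr14:56575369-56575618, plus strand: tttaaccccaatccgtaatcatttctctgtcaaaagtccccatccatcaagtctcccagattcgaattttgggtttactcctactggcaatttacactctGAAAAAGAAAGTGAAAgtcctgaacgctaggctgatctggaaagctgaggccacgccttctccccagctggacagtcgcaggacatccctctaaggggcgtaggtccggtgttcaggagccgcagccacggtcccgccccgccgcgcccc

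Motifs were searched on both strands of windows of 300 bases, from 250 before to 50 after the start. Windows were at hand for 7 of the 10 genes, Parp11 having 2 windows. Parp9, Parp10 and Parp14 had no window and were not searched, although Parp14 and Parp9 differed most with interleukin. The core of the interferon-stimulated response element, written GAAA, any 2 bases and GAAA, bound by Stat and interferon regulatory factors, was found in 1131 of all 32851 windows (3.44%). The gamma-activated site TTCNNNGAA, bound by Stat dimers, was found in 8.30% of windows and the NF-kappaB site in 4.51%. Parp4 held 2 overlapping matches to the response element, GAAAAAGAAA at 150 to 141 bases and GAAAGTGAAA at 144 to 135 bases before the start. Together they form the capitalised stretch above. Window 1 of Parp11 held a match on the opposite strand, TTTCGATTTC at 44 to 35 bases before the start, which overlapped a match to the gamma-activated site, TTCTTGGAA at 37 to 29 bases. Parp1, Parp2, Parp3, Parp8, Parp12 and window 2 of Parp11 held none of the motifs, and the NF-kappaB site was in no member's window. A match is a description of letters, and its absence says only that these letters are not in the window. The upstream run of Parp12 was 73.6% G and C, that of Parp1 61.6% and that of Parp4 54.4%. For Parp11 it was 40.4% in window 1 and 57.6% in window 2.

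Parp1, the main sensor of DNA strand breaks, was lower with interleukin on all of its probe sets and differed little with hydrogen peroxide on the bright ones. Its brightest probe set (1422502_at) read 9948 and 11354 with vehicle, 10696 and 11067 with hydrogen peroxide, and 7771 and 8533 with interleukin. Both interleukin arrays lay below all 4 others, and the hydrogen peroxide arrays lay within the vehicle range. The log2 difference was -0.38 ± 0.10 (SE) for interleukin against vehicle and 0.03 ± 0.10 for hydrogen peroxide against vehicle, with a 95% interval of -0.19 to 0.26 for the latter. The second Parp1 probe set (1422503_s_at) had close replicates, at 8616 and 8637 with vehicle, 8699 and 8411 with hydrogen peroxide, and 6239 and 6267 with interleukin, a log2 difference of -0.46 ± 0.09 for interleukin. The third (1435368_a_at) lay at 6759 and 6250 with vehicle, 6922 and 6243 with hydrogen peroxide and 5497 and 4901 with interleukin. The remaining, dim probe set (1443573_at) read 432 and 434 with vehicle, 299 and 353 with hydrogen peroxide and 274 and 286 with interleukin. It was the only 1 of the 4 in which hydrogen peroxide lay below vehicle on both arrays. All 4 probe sets had both interleukin arrays below both vehicle arrays, by -0.63 to -0.32 on the log2 scale.

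Array quality also differed between the groups. For beta-actin, the 3′ over 5′ ratio of its control probe sets, which rises as transcripts are shortened or labelling falls off, was 1.22 and 1.26 with vehicle, 1.35 and 1.32 with hydrogen peroxide, and 1.46 and 1.55 with interleukin. That of Gapdh stayed at 0.825 to 0.873 over the 6 arrays. For Tfrc it was 1.85 and 2.14 with vehicle, 3.54 and 2.30 with hydrogen peroxide and 3.05 and 3.95 with interleukin, thus higher with both treatments. The part of these shifts in the lower Parp1 signals was not tested.

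Parp2, which shares the strand-break role of Parp1, differed little between the groups. Its probe set read 2811 and 2836 with vehicle, 2895 and 3204 with hydrogen peroxide, and 2662 and 2770 with interleukin. The arrays of each treatment lay outside the vehicle range, above it for hydrogen peroxide and below it for interleukin, but by small amounts. The log2 difference was 0.11 with hydrogen peroxide (95% interval -0.16 to 0.38) and -0.06 with interleukin (-0.32 to 0.21). Parp3, a smaller enzyme that responds to strand breaks and adds single ADP-ribose units, went the other way from Parp1 with interleukin. Its brightest probe set read 3904 and 3630 with vehicle, 3923 and 3685 with hydrogen peroxide, and 5118 and 4409 with interleukin. That is 1.26-fold higher with interleukin (log2 0.34 ± 0.12) and 0.01 with hydrogen peroxide. Both dimmer Parp3 sets also had both interleukin arrays above both vehicle arrays, by 0.27 ± 0.14 and 0.31 ± 0.15. All 3 Parp3 sets are of array types that can match more than 1 transcript, as are the Parp1 sets 1422503_s_at and 1435368_a_at and the Parp8 set.

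**Figure D1:**
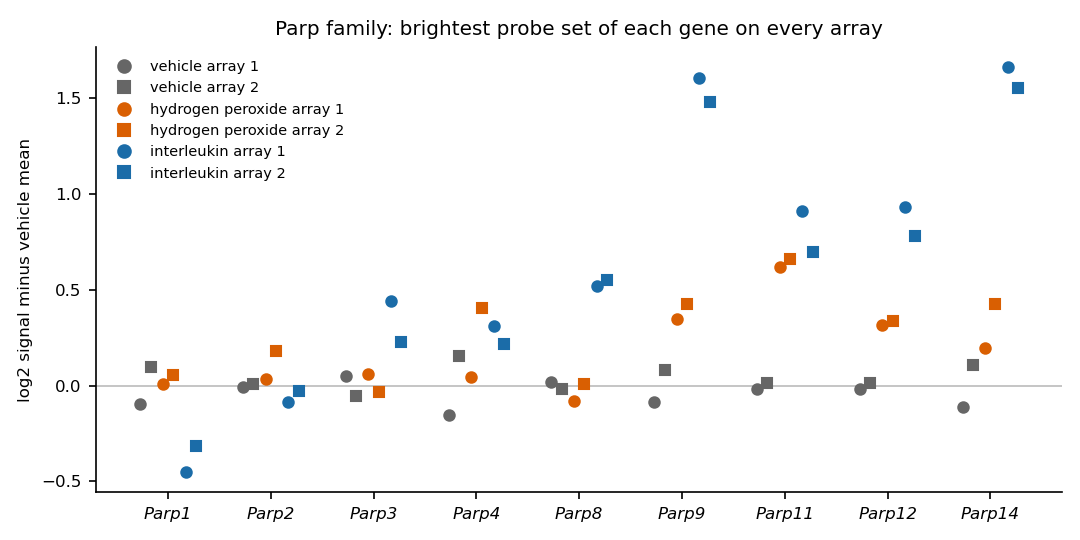
Log2 MAS5 signal minus its vehicle mean for the brightest probe set of each of the 9 Parp genes on each of the 6 arrays, 2 per group. Parp9, Parp12 and Parp14 stand highest on the interleukin arrays, Parp11 is higher on the arrays of both treatments, and Parp1 is lowest on the interleukin arrays.

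Parp14 and Parp9, macrodomain proteins that read ADP-ribose and act in interferon signalling, differed most. Parp14 read 951 and 1105 with vehicle, 1174 and 1379 with hydrogen peroxide, and 3246 and 3007 with interleukin. The groups formed 3 steps with no overlap, the interleukin step being by far the larger. It was 3.05-fold higher with interleukin (log2 1.61 ± 0.15) and 1.24-fold higher with hydrogen peroxide (0.31 ± 0.15, 95% interval -0.03 to 0.65). The dim second Parp14 set read 105 and 159 on the vehicle arrays. Its interleukin arrays gave 223 and 246, and its hydrogen peroxide arrays were far apart, at 33.2 and 183. Parp9 read 1792 and 2012 with vehicle, 2419 and 2551 with hydrogen peroxide, and 5789 and 5297 with interleukin. Again no groups overlapped. It was 2.92-fold higher with interleukin (log2 1.54 ± 0.12) and 1.31-fold higher with hydrogen peroxide (0.39 ± 0.12), and 2.23-fold higher with interleukin than with hydrogen peroxide. Parp14, Dtx3l and Parp9 are neighbours on chromosome 16.

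Parp12 and Parp11 carry a WWE domain, which binds ADP-ribose chains, and add single ADP-ribose units; Parp12 also has zinc fingers. Parp12 read 6807 and 6961 with vehicle, 8588 and 8711 with hydrogen peroxide, and 13137 and 11837 with interleukin. Each group lay clear of the others, in the order vehicle, hydrogen peroxide, interleukin. The fold was 1.81 with interleukin (log2 0.86 ± 0.10) and 1.26 with hydrogen peroxide (0.33 ± 0.10). Parp11 had the same order of groups with other step sizes. It read 1219 and 1245 with vehicle, 1895 and 1952 with hydrogen peroxide, and 2317 and 1998 with interleukin. Both treatments lay clear of vehicle, by 1.56-fold with hydrogen peroxide (log2 0.64 ± 0.14) and 1.75-fold with interleukin (0.81 ± 0.14). Between the treatments the interleukin arrays lay higher, but the log2 difference was 0.16 ± 0.14, with a 95% interval of -0.15 to 0.47. Its dim second set lay at 97.2 and 83.5 with vehicle, 99.6 and 156 with hydrogen peroxide, and 202 and 219 with interleukin.

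Parp8 and Parp4 are less studied members. Parp8 read 1308 and 1272 with vehicle, 1219 and 1295 with hydrogen peroxide, and 1850 and 1890 with interleukin. It was thus higher with interleukin (1.45-fold, log2 0.54 ± 0.14) and overlapped vehicle with hydrogen peroxide (-0.04 ± 0.14, 95% interval -0.35 to 0.27). Parp4 is a component of the vault particle. Its brightest set read 727 and 901 with vehicle, 834 and 1071 with hydrogen peroxide, and 1004 and 942 with interleukin, log2 differences of 0.22 ± 0.20 and 0.27 ± 0.20. The hydrogen peroxide arrays overlapped those of vehicle, and the second, dimmer set varied more within a group, reading 269 and 166 with vehicle. That dimmer set read 392 and 225 with hydrogen peroxide and 299 and 352 with interleukin, an interleukin difference of 0.62 ± 0.38. Among brightest probe sets of members other than Parp1 and Parp2 the interleukin difference of Parp4 was the smallest. The Parp4 promoter held 2 matches to the response element, and a link between matches and signals was not tested. The promoters of Parp9 and Parp14 were not searched.

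Over the 15 probe sets that passed the filter, both interleukin arrays lay above both vehicle arrays in 10 and below them in 5, beside 27.6% and 31.4% of all probe sets tested. The 5 lower sets were the 4 of Parp1 and that of Parp2. At an adjusted p below 0.05 in limma, 5 were higher (Parp8, Parp9, Parp11, Parp12 and Parp14) and 2 were lower (both Parp1), where 7.58% and 8.52% of all sets passed in these directions. With hydrogen peroxide, 5 sets lay above vehicle on both arrays, 1 below and 9 overlapped, beside 29.8% and 25.6% of all. Only Parp11 passed as higher there (3.05% of all sets), and 0 passed as lower (2.65%). Between the treatments, both interleukin arrays lay above both hydrogen peroxide arrays in 8 sets (21.8% of all), below in 5 (30.0%) and overlapped in 2. Parp8, Parp9, Parp12 and Parp14 passed as higher (4.95% of all) and 2 Parp1 sets as lower (3.87%), out of 8.82% of all sets called in either direction. Because these contrasts chose the family, nothing is read from the counts. Without probe sets of shared transcripts, 9 sets remained, and the Parp8 set was among those left out. With interleukin against vehicle, 4 of the 9 were then higher and 1 (Parp1) lower in limma, beside 15.1% of all sets in either direction. With interleukin against vehicle, leaving out either vehicle array left 4 higher and 0 lower, Parp8 and Parp1 no longer passing. Parp8 was also lost without either interleukin array, and 1 Parp1 set without interleukin array 1, with no filter or with no variance trend on signal. The Parp11 call with hydrogen peroxide was lost without any 1 of the vehicle or hydrogen peroxide arrays and with no variance trend, which left 0 of the 15 in limma (0.253% of all sets). Between the treatments, leaving out either hydrogen peroxide array left 3 higher and 0 lower, the Parp1 sets no longer passing. Parp8 was lost there without any 1 of the 6 arrays and in the fit on 4 arrays, and with no variance trend Parp9 and Parp14 alone passed.

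**Figure D2:**
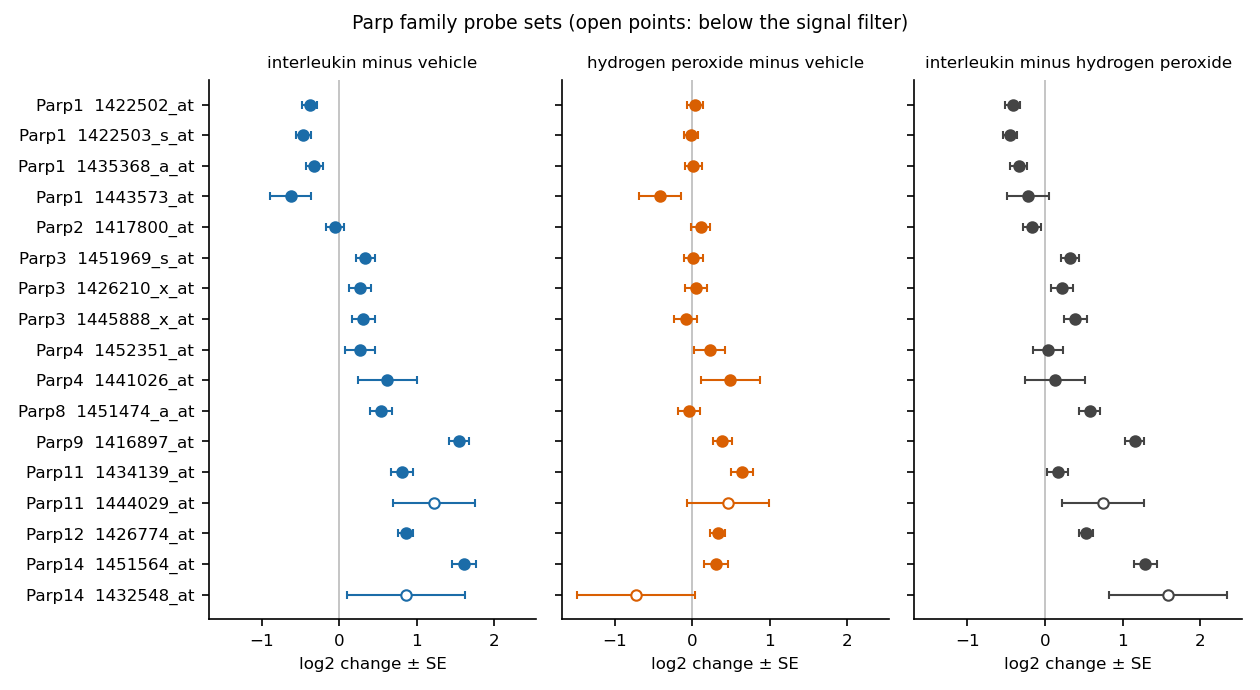
Log2 difference of each of the 17 Parp probe sets, with bars of 1 standard error from limma. The panels show interleukin against vehicle, hydrogen peroxide against vehicle and interleukin against hydrogen peroxide. With interleukin against vehicle, the brightest sets of Parp14 and Parp9 lie farthest to the right and the 4 Parp1 sets lie left of 0. The hydrogen peroxide differences of the tested sets against vehicle span -0.42 to 0.64.

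The contrast within the family can be read on each array without reference to its overall brightness. The log2 signal of Parp14 minus that of Parp1, relative to its vehicle mean, was -0.01 and 0.01 with vehicle, 0.19 and 0.37 with hydrogen peroxide, and 2.11 and 1.87 with interleukin. For Parp12 minus Parp2 these values were -0.01 and 0.01, 0.28 and 0.16, and 1.02 and 0.81. The mean of the 7 other members minus the mean of Parp1 and Parp2 stood at 0.19 and 0.20 with hydrogen peroxide and at 1.18 and 0.96 with interleukin. All treated arrays lay above both vehicle arrays in each of these differences, and the interleukin arrays lay above the hydrogen peroxide arrays. The family and this contrast were chosen with the same signals in view, so the order is a description and no support for the contrast. Over the brightest probe sets of the 7 other members the median log2 difference was 0.81 with interleukin (range 0.27 to 1.61) and 0.31 with hydrogen peroxide (range -0.04 to 0.64). Over all 10 tested sets of these members the medians were 0.58 and 0.27. All probe sets tested had medians of -0.02 and 0.02. Levels of different genes are not compared here, since probe sets differ in how brightly they bind.

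**Figure D3:**
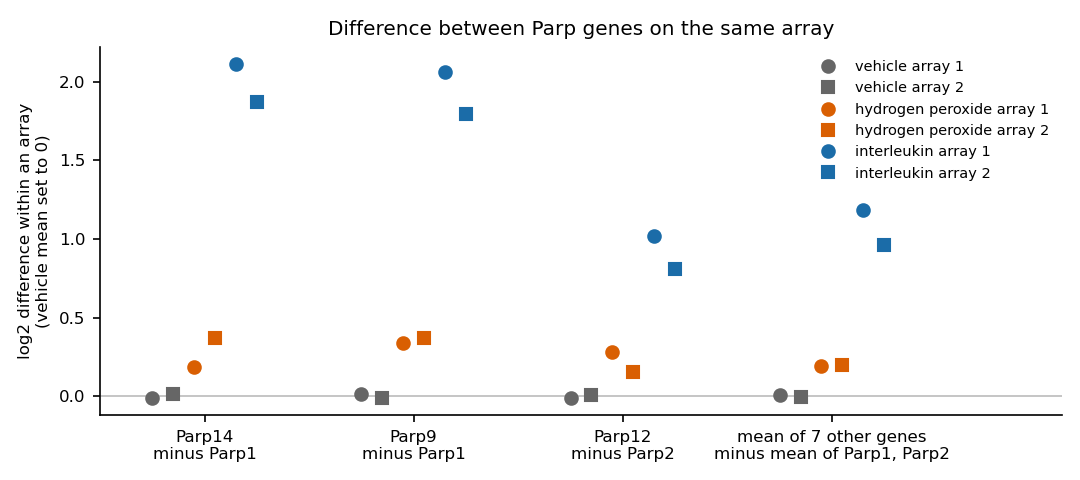
Differences in log2 signal between Parp members on the same array, shifted so that the 2 vehicle arrays average 0, for each of the 6 arrays. In every pair shown the interleukin arrays lie highest and the hydrogen peroxide arrays lie between them and vehicle, for example at 0.19 and 0.37 against 2.11 and 1.87 for Parp14 minus Parp1.

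Partner genes outside the rule were tested with limma, with Benjamini-Hochberg adjustment over all 22519 probe sets. Their lists were written with earlier results of these data known, so the list shares below are a description and no independent test. List shares rest on the brightest probe set of each gene, while the shares of all sets beside them include dimmer sets. With a filter at the 65th percentile of mean log2 signal, 21.3% of sets passed with interleukin and 8.63% with hydrogen peroxide, each against vehicle. Of 6 other ADP-ribosyltransferases, each at its brightest probe set, 0 passed in limma with interleukin against vehicle (16.1% of all sets in either direction). Only Zc3hav1, a catalytically inactive antiviral zinc-finger member, passed with hydrogen peroxide. It read 6689 and 6316 with vehicle and 4476 and 4935 with hydrogen peroxide, and fell by 0.47 on the log2 scale (SE 0.11, adjusted p = 0.0359). The call was lost without any 1 of those 4 arrays (adjusted p = 0.0729 to 0.211), and another Zc3hav1 probe set differed by 0.28 in the other direction (adjusted p = 0.450). Tankyrase Tnks, which builds poly-ADP-ribose chains at telomeres and in Wnt signalling, differed by -0.37 ± 0.11 with interleukin (adjusted p = 0.0520) at its brightest set and fell by 1.59 at a dimmer one (adjusted p = 0.00621, 0.0727 without vehicle array 1). Tnks2 differed by 0.02 at its brightest set and fell by 1.14 at a dimmer one (adjusted p = 0.00368), so probe sets of 1 tankyrase gene disagreed. Tiparp, a mono-ADP-ribosyltransferase, likewise differed by 0.11 at its brightest set and fell by 0.54 at a dimmer one (adjusted p = 0.0235), a call lost without either vehicle array or interleukin array 2 (adjusted p = 0.106 to 0.136). Between the treatments Tnks was lower with interleukin (log2 -0.42, adjusted p = 0.0450), a call lost without either vehicle array, either hydrogen peroxide array or interleukin array 2 (adjusted p = 0.0602 to 0.293).

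Genes that remove or read ADP-ribose gave 3 higher, 0 lower and 11 not passed of 14 tested (16 listed) with interleukin, a share of 21.4% beside 16.1% of all probe sets. Their median log2 difference was -0.12, beside -0.02 over all sets. Dtx3l, the ubiquitin ligase that pairs with Parp9, read 1933 and 1921 with vehicle, 2492 and 2487 with hydrogen peroxide, and 4824 and 4328 with interleukin. It rose 2.37-fold with interleukin (log2 1.25 ± 0.12, adjusted p = 9.57e-05), with the same order of groups as Parp9 and Parp14, and its second probe set rose by 1.64. Macrod1, a macrodomain hydrolase that removes single ADP-ribose units, read 345 and 570 with vehicle, 754 and 664 with hydrogen peroxide, and 1562 and 1207 with interleukin, rising 3.10-fold (adjusted p = 0.0019). Chd1l, a chromatin remodeller recruited by poly-ADP-ribose, rose by 0.46 ± 0.14 (adjusted p = 0.0470), a call lost without any 1 array except interleukin array 2 (adjusted p = 0.0625 to 0.303). With hydrogen peroxide 0 of the 14 passed in limma. Parg, the main hydrolase of poly-ADP-ribose chains, named for that role after its values were seen, read 1877 and 2036 with vehicle and 2421 and 2700 with hydrogen peroxide (log2 0.39 ± 0.13, adjusted p = 0.119). Between the treatments Dtx3l was higher with interleukin by 0.88 (adjusted p = 0.00128) and Macrod1 by 0.96 (adjusted p = 0.0422). The Macrod1 difference was lost without any 1 of the 4 treated arrays (adjusted p = 0.0725 to 0.197).

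NAD is the substrate of every active member. Of 13 genes of its supply and use tested (17 listed), 1 rose with interleukin (7.69%, beside 16.1% of all sets), 1 with hydrogen peroxide (7.69%, beside 5.69%) and 0 fell. Nnmt, which methylates nicotinamide, lay below the filter and was not tested, at 12 and 20.4 with vehicle, 18.8 and 203 with hydrogen peroxide, and 527 and 369 with interleukin (named after its values were seen). Nampt, the rate-limiting enzyme of NAD salvage, read 3873 and 3625 with vehicle, 4309 and 4466 with hydrogen peroxide, and 7102 and 6341 with interleukin. It rose 1.79-fold with interleukin (log2 0.84 ± 0.11, adjusted p = 0.000684) and was 0.61 higher than with hydrogen peroxide (adjusted p = 0.0066). Its other probe sets differed by 0.97 (adjusted p = 0.000472) and 0.47 (adjusted p = 0.234). Nmrk1, the nicotinamide riboside kinase, rose with hydrogen peroxide from 403 and 398 to 679 and 859, or 1.91-fold (adjusted p = 0.0401), a call lost without any 1 of those arrays (adjusted p = 0.0823 to 0.197). Naprt, of the nicotinic acid route, passed between the treatments (0.62 higher with interleukin, adjusted p = 0.0170), but not without hydrogen peroxide array 1 or 2 or interleukin array 1 (adjusted p = 0.0636 to 0.0842).

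Genes of base excision and DNA strand break repair were followed as the other side of the family. Xrcc5, Xrcc6, Prkdc and Atm of this list act on double-strand breaks. Of 19 tested (20 listed), 1 rose and 4 fell with hydrogen peroxide (26.3%, beside 5.69% of all probe sets), and 1 rose and 2 fell with interleukin (15.8% beside 16.1%). Lig1, the replicative DNA ligase, read 10812 and 12972 with vehicle, 7521 and 7086 with hydrogen peroxide, and 10142 and 10341 with interleukin. It fell by 0.70 ± 0.11 (log2) with hydrogen peroxide (adjusted p = 0.00573, 0.0715 without vehicle array 2), and the treatments differed by 0.49 (adjusted p = 0.0176, 0.128 without hydrogen peroxide array 2 and 0.0697 without interleukin array 2). The sliding clamp Pcna fell with both, from 56973 and 57556 to 44050 and 43880 with hydrogen peroxide (adjusted p = 0.0106) and to 45840 and 49277 with interleukin (adjusted p = 0.0215). Fen1, the flap endonuclease, fell by 0.66 with interleukin (adjusted p = 0.00565, 0.0565 without vehicle array 2) and, outside the naming rule, by 0.57 with hydrogen peroxide (adjusted p = 0.0274). Ung, which removes uracil, fell by 0.61 with hydrogen peroxide (adjusted p = 0.0272). Lig1, Pcna, Fen1 and Ung also act at replication forks. Neil1, a glycosylase for oxidised bases, was the 1 that rose, from 1354 and 1275 to 2199 and 2288 with hydrogen peroxide (1.71-fold, adjusted p = 0.0130) and to 1973 and 1680 with interleukin (adjusted p = 0.0477). The hydrogen peroxide calls of Pcna, Fen1, Ung and Neil1 were each lost without any 1 vehicle or hydrogen peroxide array (adjusted p = 0.0529 to 0.213). With interleukin, Pcna was lost without either vehicle array or interleukin array 1 (0.0913 to 0.137) and Neil1 without any 1 array except interleukin array 2 (0.0643 to 0.230, adjusted p in each case).

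Genes of interferon signalling, the pathway that several mono-ADP-ribosylating members belong to, gave 10 higher, 1 lower and 7 not passed of 18 tested (20 listed) with interleukin, a share of 61.1% beside 16.1% of all sets, with a median log2 difference of 0.72 beside -0.02. Irf9, the DNA-binding part of the interferon-stimulated complex, read 1623 and 1518 with vehicle, 3514 and 3816 with hydrogen peroxide, and 6171 and 4527 with interleukin. It rose 3.37-fold with interleukin (adjusted p = 4.62e-05) and 2.33-fold with hydrogen peroxide (log2 1.22 ± 0.15, adjusted p = 0.00219). Usp18, a feedback inhibitor of the interferon receptor, read 3432 and 3466 with vehicle, 5787 and 5581 with hydrogen peroxide, and 17275 and 14522 with interleukin, rising 4.59-fold with interleukin (adjusted p = 8.82e-07). The transcription factor Irf7 rose 4.48-fold with interleukin (adjusted p = 1e-05) and the antiviral gene Ifit3 rose 9.05-fold (adjusted p = 1.84e-05), its 2 interleukin arrays lying apart at 15875 and 8016. The 1 that fell was the kinase Jak1, by 0.40 (adjusted p = 0.00951, 0.101 without vehicle array 2), named here although the naming rule did not select it. Jak2 did not pass with interleukin without vehicle array 2 (adjusted p = 0.0541).

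With hydrogen peroxide 5 of the 18 rose and 0 fell (27.8% beside 5.69%), with a median of 0.12. Besides Irf9 these were Ifit3 (log2 1.25, adjusted p = 0.0167), Irf7 (0.86, adjusted p = 0.0101), Usp18 (0.72, adjusted p = 0.00569) and Ddx58 (0.68, adjusted p = 0.0175), a sensor of viral RNA. Irf9 still passed with any 1 array left out. Ifit3 and Ddx58 each lost the call without any 1 vehicle or hydrogen peroxide array, Usp18 without either vehicle array, and Irf7 without vehicle array 1 or hydrogen peroxide array 1 (adjusted p = 0.0512 to 0.143 over these). Under a variance model with no trend on signal, none of the 12 partner calls with hydrogen peroxide remained (adjusted p = 0.0690 to 0.158 in limma), and 57 of all probe sets were called. Between the treatments 9 of the 18 were higher with interleukin (50%) and 0 lower, beside 4.95% and 3.87% of all sets. Ifit1, another antiviral gene, was near vehicle with hydrogen peroxide and higher with interleukin, at 5385 and 5683 with vehicle, 6053 and 5490 with hydrogen peroxide, and 11935 and 12350 with interleukin (adjusted p = 8.67e-05 between the treatments).

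**Figure D4:**
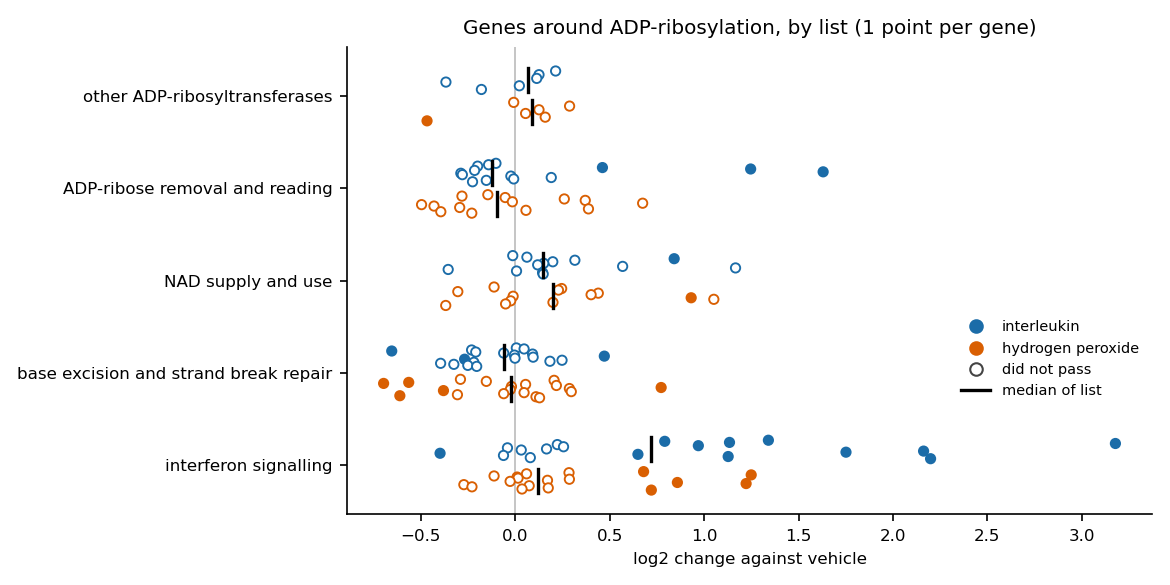
Log2 differences against vehicle of the tested genes of the 5 partner lists, with 1 point per gene at its brightest probe set. Interferon signalling has a median of 0.72 with interleukin and 0.12 with hydrogen peroxide, while the medians of the other lists lie between -0.12 and 0.20.

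Some markers of the labelled cell type and of other cells also differed with interleukin. The summed signal of 9 leukocyte and macrophage markers was 3903 to 3915 with vehicle, 4591 to 4758 with hydrogen peroxide and 6586 to 7362 with interleukin. This sum rests mainly on Cd14, which read 2627 and 2563 with vehicle and 4354 and 5415 with interleukin. Of the 9 markers, 3 passed the filter. Cd14 and Cd68 were higher with interleukin, while Csf1r differed by 0.11, its arrays overlapping those of vehicle, and did not pass. The defining markers Ptprc, Adgre1, Itgam and Cd3e lay below the filter. The summed signal of mural and renin-lineage markers was 18665 to 20040 without interleukin and 26273 to 33498 with it. That sum rests mainly on Acta2 and Pdgfrb, while Foxd1 of the same list lay lower with both treatments, at 2313 and 1992 with vehicle, 1000.5 and 1185 with hydrogen peroxide and 1372 and 1458 with interleukin. Cspg4 differed by -0.63 with interleukin, its arrays overlapping those of vehicle, and did not pass. Gja5, Gja4, Myh11 and Rgs5 of this list lay below the filter. Of 6 endothelial markers only Kdr passed the filter, reading 13235 and 15690 on the vehicle arrays and 8069 and 11214 on the interleukin arrays. Among the dim others, Pecam1, Cdh5, Tek and Emcn differed in the opposite direction, by 0.78 to 1.33 on the log2 scale. Tie1 differed by -1.30, in the direction of Kdr. The interleukin and vehicle arrays overlapped for Emcn and Tie1, and none of these dim markers was tested. Summed epithelial markers lay at 843 to 1215 over all arrays. The part of these markers in the Parp signals was not tested.

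Over the 6 arrays, the genes whose profile lay closest to that of Parp14 were Parp9 (root mean square difference of centred log2 signals 0.07, Pearson r = 0.996), Ugcg, which makes glucosylceramide (0.08), Apol6, an apolipoprotein L (0.11), Xdh, the purine-oxidising enzyme (0.13), and Gfra2, a growth factor receptor (0.13), among 1684 candidates. Those closest to Parp1 were Iffo1 (0.03), Farsa, a tRNA synthetase subunit (0.04), the nuclear pore protein Pom121 (0.04), the transcription factor subunit Gtf2h3 (0.04) and the nucleolar protein Nolc1 (0.04), among 9242 candidates. These likenesses rest on 6 arrays of 3 groups and are a description.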

How the data were processed

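The authors deposited MAS5 intensities, 1 linear signal for each probe set, per the submitters' processing notes; the version is not given in these sources. Signals were log2 transformed with no pseudocount. The 64 control probe sets were left out, and the 22519 of 45037 others with a mean log2 signal at or above the median were tested with limma 3.58.1 in R 4.3.3 (6 arrays in 1 fit, eBayes with a trend on signal, Benjamini-Hochberg adjustment over all tested, threshold 0.05). Replicates are separate cultures per the series description.

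Symbols were taken from the annotation of the array and updated through RefSeq gene identifiers, which matched 34754 of 34958 probe sets with 1 symbol. Another 932 had several symbols and 9211 none listed. Adprs and Rigi were found as Adprhl2 and Ddx58. A gene was led by its brightest probe set. At most 4 genes of smallest p per list and comparison were named, beside exceptions said to be so. The members, lists and tests were chosen with earlier results of these data known. The script was tested on simulated data. Alternatives were other scaling, a pseudocount of 32, other filters, no variance trend, a replicate block, fits on 4 arrays, on each set of 5 arrays, and without probe sets of shared transcripts.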

Additional observations from a re-analysis of the deposited data

How the results depend on the processing

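With 2 arrays per group, precision rests on few cultures, and dim probe sets near the filter vary most. No called difference of a named gene changed sign under the alternatives tried. For interleukin against vehicle 3627 probe sets passed (1708 higher, 1919 lower), 1783 with no variance trend and 1554 to 3583 with 1 array left out. For hydrogen peroxide 1282 passed (686 higher, 596 lower), 762 with no filter, 57 with no trend, 825 without probe sets of shared transcripts and 235 to 1751 with 1 array left out. Centring on the 75th percentile gave 602 higher and 879 lower there. Between the treatments 1987 passed, 716 with no trend and 839 to 1919 with 1 array left out. The cause of these shifts was not tested, apart from the fewer arrays or probe sets fitted.

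Over all alternatives the interleukin difference (log2) of Parp14 lay at 1.499 to 1.716, of Parp9 at 1.46 to 1.63, of Parp12 at 0.78 to 0.93, of Parp11 at 0.70 to 0.91 and of the brightest Parp1 set at -0.48 to -0.29. With hydrogen peroxide, Parp11 lay at 0.59 to 0.66. Arrays share replicate numbers that the labels do not tie to a batch. Same-numbered arrays deviated together at correlations of -0.13 to 0.11. With the number as a replicate block, 3342, 1170 and 1756 probe sets passed in the 3 comparisons. Among partner genes the block lost Chd1l and Neil1 with interleukin (adjusted p = 0.0656 and 0.0598 in limma), Nmrk1 with hydrogen peroxide (0.0600), and Tnks and Macrod1 between the treatments (0.0611 and 0.0682). With no filter, Pcna with interleukin (0.0965) and Zc3hav1, Fen1 and Pcna with hydrogen peroxide (0.0532 to 0.0597) also no longer passed. Quantile scaling lost Neil1 with interleukin (0.0508) and Tnks between the treatments (0.0549). With no variance trend Chd1l, Fen1, Pcna, Neil1 and Jak1 no longer passed with interleukin (0.0636 to 0.183), nor Tnks, Macrod1, Nampt, Naprt, Lig1, Jak2, Stat2, Ifih1 and Ddx58 between the treatments (0.0632 to 0.146).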

Other observations

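Parp10, a mono-ADP-ribosyltransferase, shares its probe set on the array with Plec, which encodes the cytoskeletal linker plectin, and the signals of both genes cannot be told apart there. That probe set read 2465 and 2747 with vehicle, 3531 and 3228 with hydrogen peroxide, and 4822 and 4536 with interleukin. No groups overlapped. The log2 difference was 0.85 ± 0.12 (SE, n = 2 per group) with interleukin and 0.38 ± 0.12 with hydrogen peroxide, and interleukin lay 0.47 above hydrogen peroxide. The order of the groups was that of Parp9, Parp12 and Parp14.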
